A study of Mus musculus with 42 samples.

Results

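The 6 libraries made with the SMART-Seq v4 kit from 4 ng of RNA (SMARTseq4) were compared, 3 of RNA bound to tagged ribosomes (IP) against 3 of whole liver RNA (input). They were chosen by their library labels, with the fractions as labelled, out of 42 libraries made with 7 protocols. All libraries came from the livers of 3 mice of the genotype Gfi1Cre/+;Rpl22HA/HA. Cre from 1 Gfi1 allele recombines the RiboTag allele, so that the ribosomal protein Rpl22 carries an HA tag in cells that have expressed Gfi1 and in their descendants. The mice were untreated, and each liver gave both fractions, RNA of the homogenate and RNA recovered with an antibody against HA, so input and IP share genotype and animal. The protocol text gives an age of 30 days, whereas the stage label gives day 1 after birth. All 42 libraries carry the Cre allele, so no value without tagged ribosomes was available here. In such bulk RNA, fewer cells of a type and less RNA per cell cannot be told apart.

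Gfi1 is a zinc finger repressor of blood cell development, used by stem and progenitor cells, neutrophils and lymphocytes. The liver is built mostly of hepatocytes, and its sinusoids also house Kupffer cells, the resident macrophages, together with lymphocytes, natural killer (NK) cells, dendritic cells, platelets and their precursors. Genes of these rarer cells are diluted in homogenate RNA. Transcription factors and cytokines are commonly among the most weakly expressed of them.

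The labelled tissue was seen in the input, in which 24 hepatocyte markers took 12.3 to 14.2% of the counted reads against 2.74 to 3.01% in IP (exact permutation test, two-sided, p = 0.1, the smallest value that 3 against 3 libraries allow). Counted reads per library ranged from 23573272 to 30217161 in input and from 14407184 to 19577709 in IP, and 19111 to 20551 genes had at least 1 read. IP replicate 1 stood apart from the other IP libraries. Ribosomal RNA genes took 7.75% of its reads against 0.580% and 0.846%, hemoglobin genes 17.9% against 14.5% and 12.5%, and its summed level of the 25 Kupffer cell markers was 20654 reads per 1000000 counted (CPM) against 40627 and 32750. The counts of calls without this library, and without the mitochondrial, hemoglobin and ribosomal RNA genes, stand beside the main ones.

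The comparison asks which genes are enriched on the tagged ribosomes. Of 16406 genes with a mean of at least 5 reads over the 6 libraries, 4695 were higher in IP (28.6% of genes tested) and 4401 were lower (26.8%) by edgeR's quasi-likelihood test with TMM scaling at a Benjamini-Hochberg adjusted p under 0.05. Without TMM factors, 6843 genes were higher and 2439 lower, so that 73.7% of the calls were higher in place of 51.6%, and the median log2 fold change of all genes was 0.58 in place of 0.01. Without IP replicate 1, the counts were 4676 and 4129. Without the mitochondrial, hemoglobin and ribosomal RNA genes they were 4892 and 4156, and 8846 of the 9096 calls were shared with that fit.

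**Figure D1:**
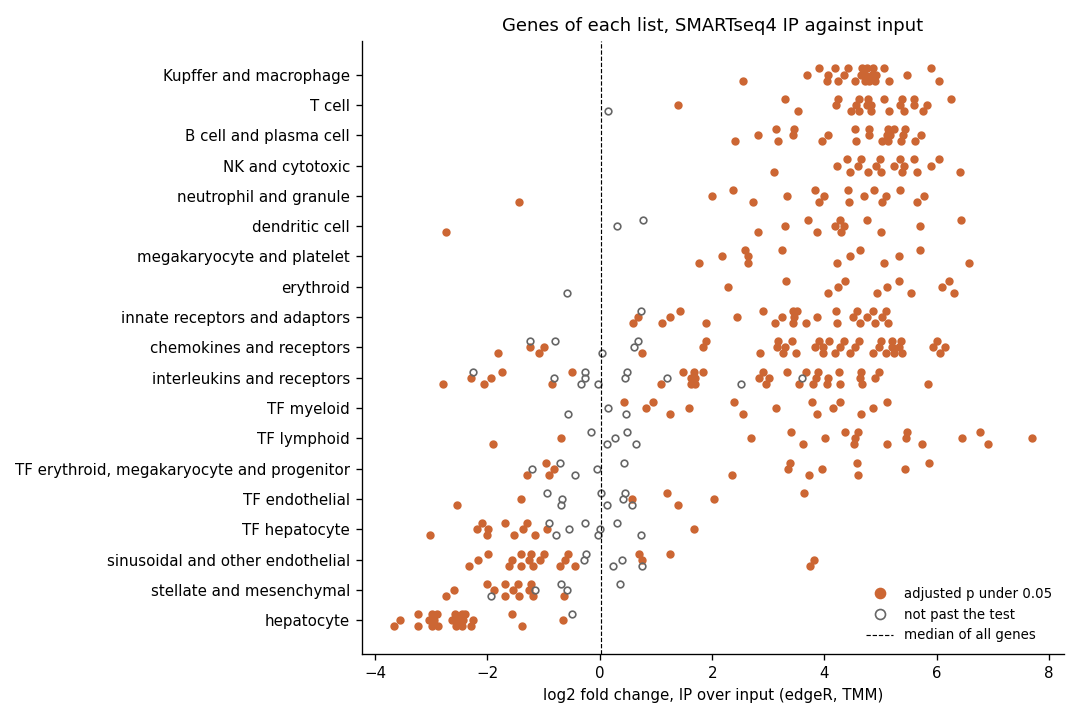
Each point is 1 gene of a list, placed at its log2 fold change of IP over input, with filled points past the test (adjusted p under 0.05) and open points not. Genes without a read in the input libraries are drawn at their lower bound, and the dashed line is the median of all genes (0.01). Immune marker lists lie to the right, hepatocyte markers to the left, and the transcription factor lists spread to both sides.

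Gfi1 (chr5:107716657-107726036, GRCm38), the gene whose allele drives Cre, had 0, 2 and 4 reads in the input libraries of mice 1, 2 and 3. It had 10, 27 and 28 reads in the IP libraries of the same mice. All IP libraries were above all input libraries, and the log2 fold change was 3.38 ± 0.84 (SE of the edgeR fit, 3 libraries per fraction, adjusted p = 6.7e-03). Without mouse 2 the value was 3.36, with an adjusted p of 0.051, and without input replicate 3 it was 4.16. Rpl22, the tagged ribosomal protein, had 593, 503 and 747 reads in input and 1051, 614 and 600 in IP. Its log2 fold change of 0.47 ± 0.34 did not pass the test (edgeR adjusted p = 0.27), and without TMM factors it was 0.98 with an adjusted p of 0.019. Without IP replicate 1 it was -0.08.

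All 25 Kupffer cell markers rose in IP. The shares to set beside this and the following counts are 28.6% higher and 26.8% lower of all genes tested. Clec4f, a lectin of these cells, had 3500, 3698 and 3602 reads in input and 47428, 140766 and 89977 in IP (log2 fold change 4.66 ± 0.30, edgeR adjusted p = 1.4e-06). Of 15 dendritic cell markers 12 rose, and 1 fell. Of 23 markers of B and plasma cells all rose, and 23 of 24 tested T cell markers and 19 of 19 tested NK markers did so. Of 17 neutrophil markers tested 16 rose, of 13 platelet markers 13, and of 13 erythroid markers 12. In contrast 23 of 24 hepatocyte markers fell. Of 26 endothelial markers 5 rose and 16 fell, and without TMM factors 7 rose and 8 fell, so the number that fell depended on the scaling. The counts of all 16406 genes to set beside those without TMM factors are 6843 higher and 2439 lower. Of 18 stellate markers 13 fell, or 7 with 1 risen without TMM factors, and of 10 cholangiocyte markers tested 4 fell. A check of 5 sex-linked genes found none past the edgeR test.

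Weakly expressed genes were defined as those with a mean under 5 CPM over the 6 libraries. There were 5828 of them among the genes tested. Of these, 1342 were higher in IP (23%) and 754 were lower (12.9%), or 1915 and 343 without TMM factors and 1294 and 641 without IP replicate 1. The immune lists, 319 genes in all, had 85 tested members in this range, of which 68 were higher in IP and 4 lower. The transcription factor lists, 246 genes, had 54, of which 25 were higher and 5 lower. A gene read almost only in IP entered the test through IP alone, and 86 of the 5828 had no read in any input library. These counts therefore describe the genes that passed the filter, not whole families. Of the 319 immune genes 291 had a read and 259 were tested, and of the 246 transcription factors 218 had a read and 188 were tested. Cxcr1, Il5, Il13, Il17a and Hoxa9 had no read in any of the 6 libraries.

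The promoters of 5 weakly expressed genes are shown as examples of genes that rose in IP from few or no input reads. They are the 3 immune genes with the smallest adjusted p whose single listed promoter holds the letters AGGAAGT, a core bound by ETS factors such as PU.1, on either strand, and Irf4 and Myb, which were not read in input. Each is the 250 bases before the RefSeq start site on GRCm38.p6, written 5′ to 3′ on the gene's strand, with the motif in capitals (as its reverse complement ACTTCCT where it lies on the other strand).
Vpreb3, chr10:75948050-75948299, plus strand: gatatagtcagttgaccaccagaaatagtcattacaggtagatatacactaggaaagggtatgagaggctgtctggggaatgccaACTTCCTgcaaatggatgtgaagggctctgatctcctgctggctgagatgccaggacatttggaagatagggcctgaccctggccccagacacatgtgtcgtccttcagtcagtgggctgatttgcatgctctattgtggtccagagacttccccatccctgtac
Cd5, chr19:10738975-10739224, minus strand: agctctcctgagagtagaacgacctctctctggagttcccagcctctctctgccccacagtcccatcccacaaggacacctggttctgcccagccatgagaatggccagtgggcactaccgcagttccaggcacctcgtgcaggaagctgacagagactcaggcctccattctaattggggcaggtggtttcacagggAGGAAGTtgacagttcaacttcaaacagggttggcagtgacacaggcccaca
Fasl, chr1:161788496-161788745, minus strand: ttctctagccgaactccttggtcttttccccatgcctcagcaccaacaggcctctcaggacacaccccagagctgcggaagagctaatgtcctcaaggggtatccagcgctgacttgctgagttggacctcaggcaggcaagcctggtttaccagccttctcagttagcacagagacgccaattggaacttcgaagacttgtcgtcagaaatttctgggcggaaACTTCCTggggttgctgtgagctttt
Irf4, chr13:30748983-30749232, plus strand: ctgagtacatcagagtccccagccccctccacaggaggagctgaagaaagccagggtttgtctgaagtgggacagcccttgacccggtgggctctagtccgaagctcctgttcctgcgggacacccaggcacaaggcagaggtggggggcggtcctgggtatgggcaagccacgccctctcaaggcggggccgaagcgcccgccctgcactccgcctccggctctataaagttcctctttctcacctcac
Myb, chr10:21160985-21161234, minus strand: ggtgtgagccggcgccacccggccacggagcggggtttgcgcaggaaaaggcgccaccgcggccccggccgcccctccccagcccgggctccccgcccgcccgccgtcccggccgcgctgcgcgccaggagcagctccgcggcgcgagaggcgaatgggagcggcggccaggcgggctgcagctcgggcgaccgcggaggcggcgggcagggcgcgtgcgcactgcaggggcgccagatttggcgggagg
The motif was in 7.69% of 32851 promoters of this length. Counted by gene, it was in 8.8% of all genes and in 21.4% of the weakly expressed list genes that were higher in IP (18 of the 84 that had a promoter in the table, out of 105). The first bases of the matches lie at -165, -52 and -26 from the start in Vpreb3, Cd5 and Fasl. These genes were chosen from the lists and by their result in IP, and the 3 matches shown were picked for holding the motif. The share among list genes not higher in IP was not counted. The 21.4% therefore cannot be tied to the result in IP, and a match describes the letters only.

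Resolution fell with abundance. Among genes under 1 CPM, 473 of 2709 were higher and 224 lower in IP, and the median standard error of the log2 fold change was 0.78. The corresponding error was 0.45 from 1 to 5 CPM, 0.26 from 5 to 20 CPM and 0.19 at 20 CPM or more. The smallest difference called was 2.55-fold under 1 CPM and 1.31-fold at 20 CPM or more. The SD of the ratio over the 3 mice showed the same order, with medians of 1.12, 0.63, 0.37 and 0.25.

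**Figure D2:**
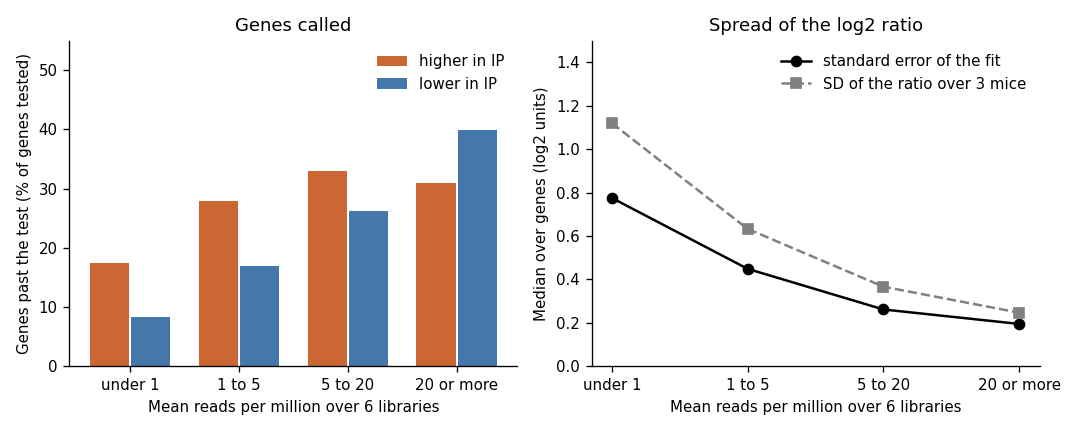
The left panel shows the percentage of genes tested that were past the test in each class of mean CPM, higher or lower in IP. The right panel shows the median standard error of the log2 fold change and the median SD of the ratio over 3 mice, which fall from 0.78 and 1.12 under 1 CPM to 0.19 and 0.25 at 20 CPM or more.

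Among lymphoid transcription factors, 9 of 9 weakly expressed members tested were higher in IP, beside 23% of all weakly expressed genes. Members with few or no input reads entered this range through IP, so their entry partly fixed this count. Of the whole list of 24 genes, 23 were tested, 16 rose and 2 fell. Of all genes tested, 28.6% were higher and 26.8% lower. Irf4 (chr13:30749226-30766976, GRCm38), a regulator of activated lymphocytes and plasma cells, was not read in any input library and had 76, 72 and 106 reads in IP. Set against a floor of 3 reads over the input group, its level was at least 87.1-fold higher (edgeR adjusted p = 3.8e-05). Bcl11b, which maintains T cell identity and whose mean of 6.54 CPM came almost only from IP, had 0, 2 and 1 reads in input and 210, 244 and 209 in IP. Its level in IP was 227 times that in input (exact 95% interval 77.5 to 1106, which, like the intervals of the other ratios, covers counting error only). Pax5, the B cell identity factor, had 0, 2 and 1 reads in input and 124, 156 and 105 in IP, a ratio of 132 (44.9 to 643). For each of these genes every IP library stood far above every input library. Without input replicate 2, which held most of their input reads, the fitted log2 fold changes were 8.58 for Bcl11b, in place of 7.69, and 7.80 for Pax5, in place of 6.91.

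Factors of T and NK effector programs showed the same separation. Tbx21, which drives interferon gamma production, had 1, 2 and 8 reads in input and 65, 147 and 173 in IP (log2 fold change 5.11 ± 0.57, edgeR adjusted p = 4.5e-05). Its relative Eomes had 0, 0 and 3 reads in input and 15, 26 and 34 in IP, a ratio of 25.7 (8.47 to 128). Input replicate 3 held all input reads of Eomes, whose fitted log2 fold change was 4.54 with that library and 7.60 without it, then set against no read. For Tbx21 the value without it was 6.20. Runx3, a factor of cytotoxic T cells, had 0, 6 and 0 reads in input and 175, 207 and 293 in IP. Its log2 fold change was 6.76 ± 0.73 (edgeR adjusted p = 3.5e-05). Input replicate 2 held all of its input reads, and without that library the fitted value, then set against no read, was 10.86. Lef1, a T cell factor of the Wnt pathway, had 1, 6 and 5 reads in input and 105, 229 and 213 in IP (5.47). Ikzf3, Stat4 and Gata3, which act in lymphocyte differentiation, had at most 11 reads in an input library and at least 78 in an IP library, with log2 fold changes of 5.74, 4.36 and 3.62, the first being 6.40 without input replicate 3. Ebf1, an early B cell factor, had 5, 13 and 5 reads in input and 111, 171 and 83 in IP (4.00, or 4.67 without input replicate 2). All of these passed the edgeR test when any 1 library or mouse was left out. With limma on log2 RPKM over the whole gene span, introns included (pseudocount 0.1), the calls of Stat4 (0.12) and Ebf1 (0.07) were lost. The pseudocount pulls values of genes with low RPKM towards 0, as for Bcl11b (0.58 in place of 7.69, still called). A call lost in that fit, here or below, therefore does not show that a difference is absent.

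**Figure D3:**
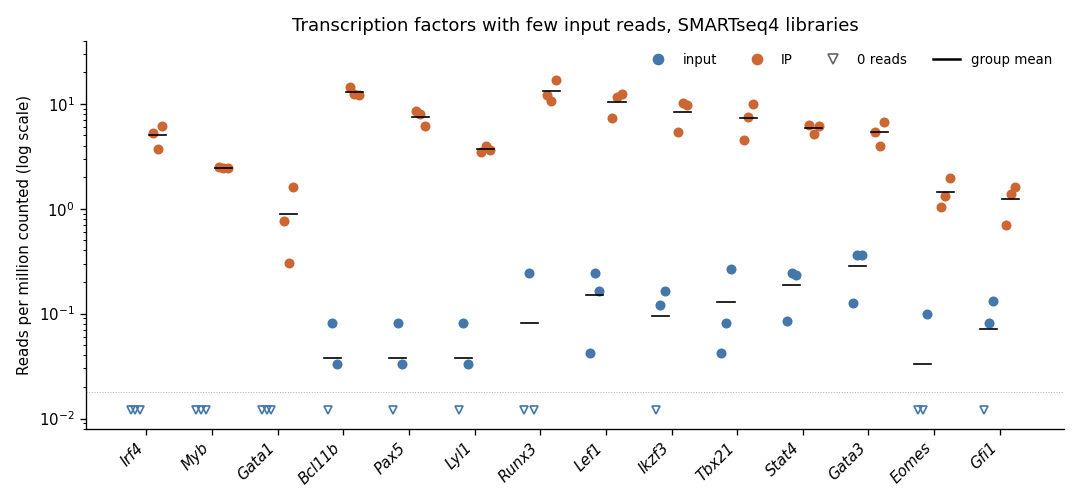
CPM of 14 transcription factors with few input reads in each of the 3 input and 3 IP libraries, on a log axis, with bars for group means and open triangles for libraries without a read. The genes were chosen with their values known, so the separation of IP from input libraries describes these genes only. Irf4, Myb and Gata1 have no read in input.

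Not all lymphoid factors followed. Tcf7, a relative of Lef1, fell, with 369, 363 and 379 reads in input and 177, 279 and 217 in IP (log2 fold change -0.69, edgeR adjusted p = 0.012). That call was lost without TMM factors (-0.13) and when IP replicate 3 (-0.56) or any 1 mouse (-0.61 to -0.70) was left out. Foxp3, the regulatory T cell factor, had 25 reads over all 6 libraries and was not tested.

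Of 18 tested factors of progenitor, erythroid and megakaryocyte cells, 9 rose and 4 fell, beside 28.6% and 26.8% of all genes tested. Without TMM factors 9 rose and none fell, beside 6843 higher and 2439 lower of all 16406 genes. Myb, a factor of hematopoietic progenitors, was absent from the input libraries and had 36, 48 and 42 reads in IP, at least 43.2-fold higher (edgeR adjusted p = 1.4e-04). Gata1, the erythroid and megakaryocyte factor, had no input read and 11, 6 and 28 reads in IP, at least 15.4-fold higher (edgeR adjusted p = 3.5e-03), a call lost with limma on log2 RPKM (0.24). Lyl1, a stem cell factor, had 0, 2 and 1 reads in input against 50, 77 and 63 in IP, a ratio of 65.2 (22.0 to 319), and its fitted log2 fold change was 5.86, or 6.76 without input replicate 2. Bcl11a, a regulator of B cells and of globin switching, had 8, 5 and 2 against 117, 146 and 98 (log2 fold change 4.61 ± 0.52, edgeR adjusted p = 4.5e-05). Tal1, a relative of Lyl1 and a partner of Gata1, had 4, 3 and 9 against 38, 16 and 18 (2.36 ± 0.72, edgeR adjusted p = 0.019). Its call was lost without input replicate 1 (2.23), input replicate 2 (2.11), IP replicate 1 (1.62) or mouse 1 (1.51).

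Klf1, the erythroid factor that activates globin genes, fell, while hemoglobin genes took 12.5 to 17.9% of the IP reads and 0.134 to 0.191% of the input reads. Klf1 had 48, 57 and 106 reads in input and 18, 25 and 39 in IP (log2 fold change -1.29 ± 0.41, edgeR adjusted p = 0.021). The call was lost without TMM factors (-0.71), without input replicate 3 (-1.01), IP replicate 1 (-1.16) or IP replicate 2 (-1.11), and without mouse 2 (-1.22) or 3 (-1.28).

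Myeloid factors were mostly better expressed, and 15 of 18 rose, beside 28.6% of all genes tested. Spi1 (PU.1), the master factor of macrophages and B cells, had 166, 155 and 169 reads in input and 1892, 6400 and 4291 in IP (log2 fold change 4.64). Spic, a relative of Spi1 found in iron-recycling macrophages, had 61, 45 and 55 against 684, 1243 and 906 (4.16 ± 0.22, edgeR adjusted p = 5.6e-07). Batf3, a factor of cross-presenting dendritic cells, had 20, 34 and 34 against 938, 990 and 941 (5.11), and Irf8, which directs the same cells and monocytes, also rose (4.28). Klf4, a monocyte factor, was barely read in input, with 4, 11 and 8 reads, and had 215, 182 and 243 in IP (4.87, or 5.48 without mouse 2). On the scale of CPM per kilobase of annotated exon, mean IP levels were 87.4 ± 36.5 (SD, n = 3) for Spi1, 35.5 ± 4.71 for Batf3, 11.6 ± 1.22 for Ikzf1, 1.61 ± 0.165 for Bcl11b, 1.03 ± 0.255 for Irf4 and 0.276 ± 0.00379 for Myb. The levels of Spi1, Batf3 and Ikzf1 did not overlap between libraries, whereas neighbours such as Irf4 and Ikzf3 (0.962 ± 0.298) did not differ beyond their spread.

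By protein family, all 3 Runx genes and all 5 Ikaros genes rose. Runx1, a factor of blood stem cells, had 22, 4 and 17 reads in input and 312, 342 and 326 in IP (log2 fold change 4.58 ± 0.45, edgeR adjusted p = 1.9e-05). Runx2, best known from bone, had 0, 0 and 10 against 56, 89 and 90 (4.60). Its input reads came from 1 library, without which the fitted value was 9.26, and its call was lost with limma on log2 RPKM (0.07). Ikzf1, required for lymphocyte development, had 21, 21 and 40 against 1079, 1216 and 1092 (5.46), and Ikzf2, found in regulatory T cells, had 6, 0 and 9 against 115, 84 and 117 (4.50, or 5.10 without mouse 3). Of 9 interferon regulatory factors, 7 rose and 2 fell, the latter not without TMM factors. The shares of all genes tested were 28.6% higher and 26.8% lower. Of 21 ETS factors tested 14 rose and 1 fell, or 16 and 0 without TMM factors. Of 14 Krüppel-like factors 7 rose and 3 fell, of 19 forkhead factors 11 and 3, and of 5 GATA factors 2 and 1. Without TMM factors these counts were 7 and 1, 11 and 2, and 2 and 0. Of 7 STAT factors 3 rose and 1 fell, of 6 C/EBP factors 1 rose, and of 10 Sox factors 2 rose and 1 fell. Without TMM factors 4 STAT, 4 C/EBP and 2 Sox factors rose and none fell. Of 32 nuclear receptors tested, 6 rose and 11 fell, beside the 28.6% higher and 26.8% lower of all genes. Without TMM factors 13 rose and 7 fell, beside 6843 higher and 2439 lower of all 16406 genes.

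Hepatocyte factors were lower in IP for 11 of 20 members, and 1 rose, or 8 and 1 without TMM factors. Nr1i3 (CAR), a xenobiotic receptor, had 373, 503 and 471 reads in input and 19, 77 and 72 in IP (log2 fold change -3.03 ± 0.35, edgeR adjusted p = 5.1e-05). Nr1h4 (FXR), the bile acid receptor, fell by 2.10 on the log2 scale, Creb3l3, an activator of hepatic lipid genes, fell by 2.18, and Hnf4a, the central hepatocyte factor, fell by 1.30. Of 15 endothelial factors tested 5 rose and 2 fell, and of 9 stellate and cholangiocyte factors 2 rose and 3 fell. The shares of all genes tested were 28.6% higher and 26.8% lower. Without TMM factors 8 endothelial factors rose and 1 fell, and 2 stellate and cholangiocyte factors rose and 1 fell. Of all 16406 genes, 6843 were higher and 2439 lower in that fit. Foxf1, a factor of liver mesenchyme, had the smallest adjusted p of the 5 weakly expressed factors that fell, with 72, 100 and 94 reads in input and 13, 19 and 12 in IP (-2.54 ± 0.38, edgeR adjusted p = 3.0e-04).

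Weakly expressed lymphocyte markers were higher in IP, namely 10 of 10 T cell, 7 of 7 B cell and 8 of 8 NK markers. The share of all weakly expressed genes was 23%. Markers with few or no input reads entered this range through IP, so their entry partly fixed these counts. Cd5, a brake on antigen receptor signals, had 0, 2 and 4 reads in input and 69, 84 and 97 in IP (log2 fold change 5.37 ± 0.64, edgeR adjusted p = 6.6e-05). Vpreb3, expressed in developing B cells, had 0, 6 and 3 against 86, 163 and 132 (5.36). Tnfrsf17 (BCMA), a survival receptor of plasma cells, had no input read and 17, 9 and 23 in IP, at least 16.8-fold higher (edgeR adjusted p = 1.9e-03). Prf1, the pore-forming protein of cytotoxic cells, had 1, 3 and 0 against 22, 71 and 91 (log2 fold change 5.35). Fasl, the death ligand of cytotoxic cells, had 0, 5 and 7 against 69, 156 and 162 (4.99), and Ifng, the gene of interferon gamma, had 2, 0 and 0 against 16, 17 and 17, a ratio of 25.7 (6.76 to 218). Klra9, an NK receptor of the Ly49 family, had 1 read in input and 35, 35 and 41 in IP, a ratio of 114 (20.1 to 4552). Members of this family are near-identical, and multiply mapped reads were removed, so its counts leave out reads that also fit another member. The value of Ifng rested on input replicate 1, being 4.46 with it and 7.14 without it, set against no read, and that of Klra9 on input replicate 2 (6.40 and 8.29). Leaving out 1 input library also moved Vpreb3 (6.37 without replicate 2), Prf1 (6.61 without replicate 2, 4.72 without replicate 3) and Cd5 (6.17 without replicate 3). Zap70, a T cell receptor kinase, was the T cell marker that did not pass, with 259, 191 and 341 reads in input and 214, 267 and 355 in IP (0.14 ± 0.23, edgeR adjusted p = 0.62). Without TMM factors its value was 0.71 with an adjusted p of 0.034.

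Platelet and neutrophil genes were resolved at the same depth. Gp1bb, part of the von Willebrand factor receptor of platelets, was absent from input and had 70, 108 and 100 reads in IP, at least 95.4-fold higher (edgeR adjusted p = 2.0e-05). Gp9 of the same receptor had 5, 3 and 3 against 60, 82 and 64 (log2 fold change 4.23). Cxcr2, the chemokine receptor of neutrophils, had 8, 4 and 1 against 61, 83 and 52 (3.91), and Mpo, the granule peroxidase, had 0, 0 and 2 against 14, 23 and 30, a ratio of 34.5 (9.18 to 291). Input replicate 3 held both input reads of Mpo, and its fitted log2 fold change was 4.88 with that library and 7.45 without it, set against no read. Without input replicate 1 the value of Cxcr2 was 4.71. Lcn2, an iron-binding granule protein that hepatocytes also make, was the neutrophil marker that fell, with 203, 156 and 611 reads in input and 49, 122 and 171 in IP (-1.44 ± 0.46, edgeR adjusted p = 0.022). That call was lost without TMM factors (-0.85), input replicate 3 (-0.77), IP replicate 1 (-1.13), IP replicate 2 (-1.38) or mouse 1 (-1.31), and with limma on log2 RPKM (-1.46 at a pseudocount of 0.1, -0.82 at 1).

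Of 61 chemokine and chemokine receptor genes, 44 were tested, 35 rose and 4 fell. Of all genes tested, 28.6% were higher and 26.8% lower. In the weak range 16 of 22 rose and 2 fell, beside 23% and 12.9% of all weakly expressed genes. Cxcr4, the receptor that retains blood cells in marrow and tissue niches, had 3, 1 and 3 reads in input and 114, 170 and 191 in IP (log2 fold change 6.05 ± 0.43, edgeR adjusted p = 2.5e-06). Ccl3, a macrophage chemokine, had 3, 2 and 1 against 61, 78 and 58 (5.01). Ccl12, a monocyte attractant, had 0, 3 and 0 against 47, 75 and 94, a ratio of 74.1 (25.0 to 362). The dendritic cell chemokine Ccl17 varied widely between the IP libraries, with 0, 1 and 1 reads in input and 6, 49 and 96 in IP, a ratio of 77.7 (21.1 to 647), and Ccl22 had 6, 12 and 0 against 76, 178 and 38 (3.97 ± 0.87, edgeR adjusted p = 3.2e-03). Input replicate 2 held all input reads of Ccl12, whose fitted log2 fold change was 6.01 with that library and 9.19 without it, set against no read, and 4.99 was the value of Ccl22 without it. The fitted value of Ccl17 was 5.93, or 5.12 without IP replicate 3, and its call was lost with limma on log2 RPKM at a pseudocount of 1 (0.67).

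Of 82 interleukin and interleukin receptor genes, 46 were tested, 28 rose and 7 fell. Of all genes tested, 28.6% were higher and 26.8% lower. In the weak range 13 of 22 rose and 2 fell, beside 23% and 12.9% of all weakly expressed genes. Il12b, the shared subunit of interleukins 12 and 23, had 0, 0 and 3 reads in input and 33, 36 and 23 in IP, a ratio of 31.6 (10.5 to 156). Il27, another cytokine of myeloid cells, had 2, 0 and 0 against 8, 21 and 17, a ratio of 23.7 (6.19 to 201). The input reads of each came from 1 library. With that library the fitted log2 fold changes were 4.90 for Il12b and 4.27 for Il27, and set against no read, without it, they were 7.97 (without input replicate 3) and 6.94 (without input replicate 1). Il10, an inhibitor of inflammation, had 0, 5 and 3 against 26, 22 and 31 (log2 fold change 3.33 ± 0.83, edgeR adjusted p = 6.5e-03), and Il4, a product of helper T cells, had 1, 2 and 2 against 7, 17 and 19 (3.01 ± 0.72, edgeR adjusted p = 5.4e-03). Without input replicate 2 the value of Il10 was 4.19. Without mouse 3 the adjusted p was 0.060 for Il10 and 0.059 for Il4. Il2, the T cell growth factor, had 2, 7 and 4 against 5, 7 and 18 and did not pass (1.19 ± 0.76, edgeR adjusted p = 0.21). The weak members that fell were Il34, a ligand of the macrophage growth factor receptor, with 52, 56 and 69 against 13, 13 and 18 (-1.93), and Il33, an alarmin, with 69, 59 and 48 against 14, 13 and 24 (-1.75). With limma on log2 RPKM the Il34 call was lost (-0.12). The Il33 call was lost without TMM factors (-1.19, adjusted p = 0.051) or mouse 2 (-1.45).

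**Figure D4:**
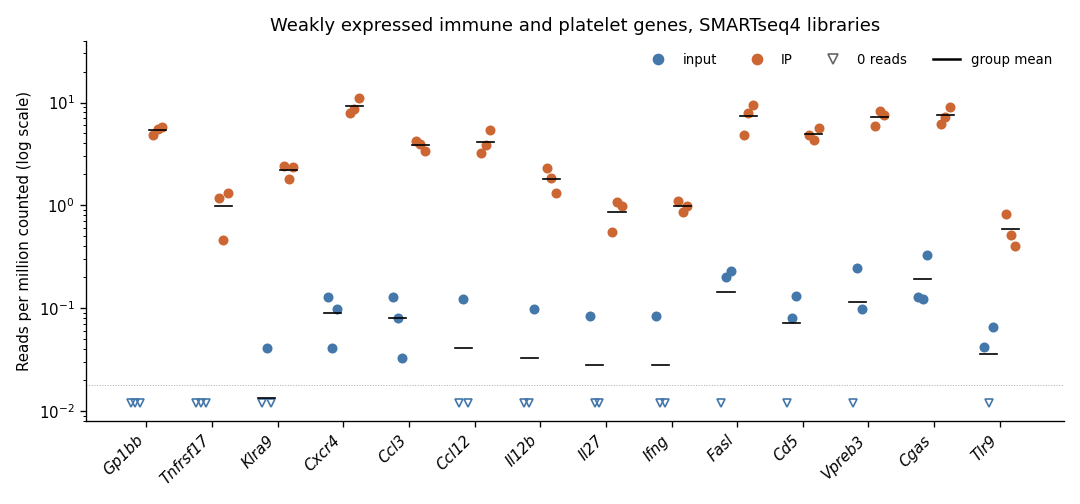
CPM of 14 weakly expressed immune and platelet genes in each of the 3 input and 3 IP libraries, on a log axis, with bars for group means and open triangles for libraries without a read. Gp1bb and Tnfrsf17 have no read in input. The genes were chosen with their values known, so the separation of IP from input libraries describes these genes only.

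Innate receptors and adaptors rose in 27 of 28 cases, and in 6 of 7 weak ones. The shares higher were 28.6% of all genes tested and 23% of all weakly expressed ones. Cgas, the sensor of cytosolic DNA, had 3, 3 and 10 reads in input and 90, 143 and 155 in IP (log2 fold change 4.63 ± 0.45, edgeR adjusted p = 1.8e-05), or 5.30 without input replicate 3. Tlr6, a partner of Tlr2 for lipopeptides, had 13, 8 and 22 against 94, 159 and 107 (3.12). Tlr9, the endosomal DNA receptor, was at the edge of detection, with 1, 0 and 2 against 12, 10 and 7, a ratio of 9.95 (3.08 to 51.0). Its fitted log2 fold change was 3.25, or 3.98 without input replicate 3, and its call was lost without mouse 2 (2.87, adjusted p = 0.071). All 10 MHC class II genes rose, as did 15 of 17 tested Fc receptor genes and their signalling partners, of which 1 fell.

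Among protein-coding genes of at least 1 CPM that passed and moved the same way in every mouse, ordered by fitted fold change, Gp1bb, Irf4, Myb and Bcl11b were among the first 10. For genes with no input read this order depends on the prior count. The first 10 also held Mcemp1, a membrane protein first described in mast cells, with 1, 0 and 0 reads in input and 108, 232 and 73 in IP (a ratio of 425, 75.9 to 16827), and Nsg2, a vesicle protein of neurons and some lymphocytes, with no input read and 33, 17 and 69 in IP (at least 40.8-fold higher). The 10 lowest values held Slc10a1, the bile acid uptake carrier, with 21694, 24837 and 42872 reads in input and 724, 2081 and 2774 in IP, and the zinc carrier Slc39a4 (log2 fold change -4.16). Ugt1a1, Ugt1a6b and Ugt1a9 were also in this group. Genes of this locus share exons, and ambiguous reads were removed in counting, so their counts leave out reads of shared exons. From 0.3 to 1 CPM, the NK receptor Klrb1f had no input read and 20, 14 and 59 in IP (at least 31.9-fold higher). In the same range the peroxidase gene Gpx6 had 11, 27 and 90 reads in input and none in IP, at least 41.5-fold lower. Hif3a, a hypoxia factor, had 9, 1 and 68 reads in IP and none in input, most of them in IP replicate 3, and its call was lost with limma on log2 RPKM (0.23). At a pseudocount of 1 that fit also lost Nsg2 (0.02), Klrb1f (0.08) and Gpx6 (-0.16). The fitted value of Mcemp1 was 8.25, or 10.13 without input replicate 1, which held its input read, and those of Ugt1a1 and Ugt1a9 were -4.93 and -5.27, or -5.73 and -6.40 without IP replicate 2. Most reads of Klrb1f lay in IP replicate 3 and most of Gpx6 in input replicate 3, without which the fitted values were 7.28 in place of 7.98 and -7.30 in place of -8.32.

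The ratios of IP to input in SMARTseq4 were repeatable between mice. Over 482 genes with at least 20 reads in every input library of all 7 protocols, the median SD of log2 ratios between the 3 mice was 0.268. It was 0.297 in TruSeq70, made with the TruSeq kit from 70 ng, and 0.337 in SMARTseq0.25, made with the SMART-Seq v4 kit from 0.25 ng. Rank correlations between mice over these genes, which share libraries and expression levels, ranged from 0.925 to 0.972 in SMARTseq4. In the 4 remaining protocols the SD was 1.01 to 1.62 with the fractions as labelled, and mouse 3 had ratios opposite to the others. In the study's own table of genes and reads per library, these replicate 3 libraries stand under the other fraction. With the fractions of replicate 3 exchanged, as in that table, the SD was 0.257 in NuGEN, below SMARTseq4, 0.273 in TruSeq4, 0.437 in NEB and 0.472 in SMARTer. With at least 100 input reads (52 genes), SMARTseq4 had 0.272, above 0.269 in SMARTseq0.25 and 0.223 in TruSeq70. Without mouse 1, whose IP library stood apart, the SMARTseq4 value over the 482 genes was 0.150. An SD over fewer mice has a lower median, so this value cannot be set against those over 3 mice. The values as labelled for those 4 protocols therefore set replicate 3 against the study's own table. With replicate 3 exchanged, the order of the best protocols still depended on the genes, and the differences among them were not tested.

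Against the other protocols that used the same RNA, more of the weak list genes passed in SMARTseq4. Of 79 weak immune genes tested in SMARTseq0.25, 31 were higher in IP, beside 7.2% of all genes in this range. In TruSeq70, 30 of 79 were higher, beside 6.53%. For weak transcription factors the numbers were 15 of 50 and 9 of 52. A call in 1 protocol and not in another does not show different ratios, and the weak range was set by the SMARTseq4 level. The difference of the ratios was tested directly, in 1 model over both protocols. Per the study's methods, TruSeq libraries were sequenced at another centre and on another instrument than SMART-Seq v4 libraries, and all reads were trimmed to a common length. A difference from TruSeq70 therefore cannot be assigned to kit, RNA amount or sequencing. Of 16250 genes, 0 had a higher and 1 a lower ratio in SMARTseq4 than in SMARTseq0.25 (0.00615% called in all) by edgeR, with 761 at an unadjusted p under 0.05 and 31 higher and 40 lower by DESeq2. Against TruSeq70, 54 of 16696 genes had a higher ratio (0.323%) and 4 a lower one (0.024%). These were 250 and 137 with a block for the RNA sample, and none when any 1 mouse was left out, with 1644 to 2070 genes at an unadjusted p under 0.05.

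In TruSeq70, Irf4 had 21, 13 and 15 reads in input and 330, 387 and 227 in IP, where SMARTseq4 had none and 76, 72 and 106, and the difference of the ratios did not pass (edgeR adjusted p = 0.064). Gfi1 had no input read in TruSeq70 and 27, 16 and 0 reads in IP, which did not pass in that protocol (edgeR adjusted p = 0.20). Of the list genes, 4 differed from TruSeq70. Trbc1, a constant segment of the T cell receptor, had 12, 6 and 25 reads in input and 255, 368 and 494 in IP in SMARTseq4, but 1, 0 and 0 against 403, 548 and 701 in TruSeq70 (difference of log2 ratios -4.97 ± 0.92, edgeR adjusted p = 0.040). Its counts leave out reads that also fit the near-identical Trbc2, since multiply mapped reads were removed. The hepatic lipid regulator Ppara fell by 0.94 in SMARTseq4 and by 2.76 in TruSeq70 (difference 1.88 ± 0.30, edgeR adjusted p = 0.029). On RPKM over the whole gene span its SMARTseq4 value turned to 0.87, past the limma test. Nr5a2, a nuclear receptor of bile acid synthesis, did not pass in SMARTseq4 (-0.03) and fell by 1.80 in TruSeq70 (difference 1.84 ± 0.33, edgeR adjusted p = 0.037). Onecut2, a factor of hepatic and biliary cells, rose in SMARTseq4 (1.27) and had a value of -0.28 in TruSeq70 (difference 1.61 ± 0.32, edgeR adjusted p = 0.048).

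**Figure D5:**
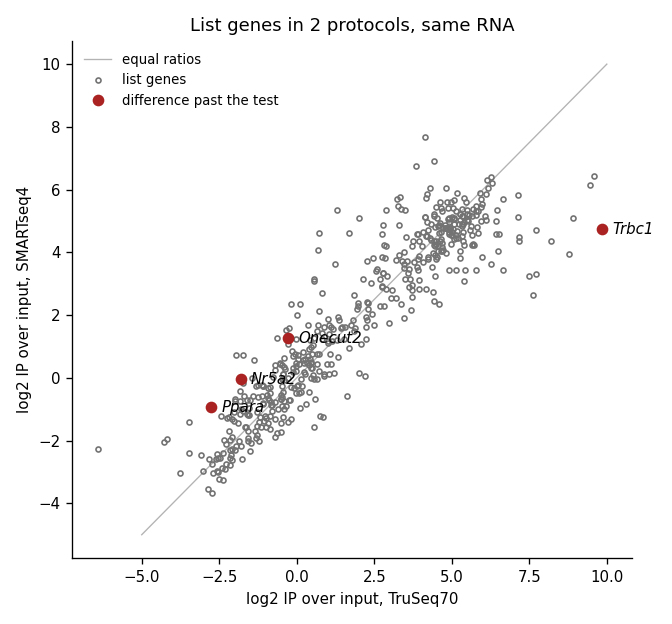
The log2 ratio of IP to input in SMARTseq4 (vertical axis) against that in TruSeq70 (horizontal axis) for 508 list genes tested in both, leaving out 39 genes with a group at 0 reads. The line marks equal ratios, and the 4 filled points, Trbc1, Ppara, Nr5a2 and Onecut2, are the list genes whose difference passed the test.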

How the data were processed

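Homogenate (input) and HA-immunoprecipitated (IP) RNA from the livers of 3 mice was made into libraries with 7 protocols, and groups were taken from the sample labels. Per the study's methods, the authors trimmed the reads, aligned them to the mouse genome GRCm38 with TopHat and counted reads over exons with HTSeq, removing ambiguous and multiply mapped reads. The SMART-Seq v4 kit does not mark strand and, per the study's methods, strand was not considered, so reads of overlapping antisense genes cannot be told apart. The deposited read counts per gene, which are not normalized, were used for all main results. Rows that name no gene stayed out of totals and tests, and reads assigned to no feature came to 3.45 to 4.20% in input and 6.67 to 13.1% in IP. The deposited RPKM values, per the authors' files, refer to the whole gene span including introns and served only as an alternative, with limma 3.58.1 on log2(RPKM + 0.1) or log2(RPKM + 1).

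IP and input were compared with edgeR 4.0.16 (quasi-likelihood test, TMM factors, R 4.3.3) over genes with a mean of at least 5 reads, adjusted by Benjamini-Hochberg with a threshold of 0.05. The standard error (SE) given with a log2 fold change, or with a difference of log2 ratios, is its absolute value divided by the square root of its F statistic. It comes from the main fit, which has no term for the mouse, and is not a spread over mice. DESeq2 1.42.0, other scalings and filters, thinned libraries, a block for the mouse and leaving out each library or mouse were alternatives. Differences between protocols were an interaction term over both protocols. Genes with no read in a group were set against a floor of 3 reads over that group, and for 1 to 3 reads the ratio is given with an exact 95% counting interval. Replicate numbers mark the same mouse: deviations of input and IP from their group means correlated at 0.355, 0.336 and 0.499 for equal numbers and at -0.370 to -0.119 for unequal ones, over 10578 genes. Levels are reads per 1000000 counted (CPM) and, between genes, CPM per kilobase of exon, with positions from GENCODE on GRCm38. Genes named with values are Gfi1 and Rpl22, members of the lists (those weakly expressed with the smallest adjusted p first), the 10 largest and 10 smallest fold changes at 1 CPM or more and from 0.3 to 1 CPM among protein-coding genes past the test that moved the same way in every mouse, and, for differences between protocols, the 5 smallest p in each direction with all list genes called. Members and lists were chosen with earlier results of these data known. Some members of the lists are not reported here.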

Additional observations from a re-analysis of the deposited data

Results flagged for a closer look

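Ratios of IP to input were compared between protocols made from the same RNA, and the following differed by a test of the difference itself. Against TruSeq70, the kit, the RNA amount and the sequencing centre and instrument all differ and cannot be told apart. Against SMARTseq0.25, 1 gene had a lower ratio in SMARTseq4. It was Myo1f, a myosin of leukocytes, with a difference of log2 ratios of -5.60 ± 0.68 (edgeR adjusted p = 0.033). The call was lost with a block for the RNA sample, without TMM factors and when any 1 mouse was left out. Myo1f had 50, 41 and 55 input reads in SMARTseq4 and 3, 0 and 0 in SMARTseq0.25, while IP reads were 551, 1229 and 806 against 642, 1076 and 822.

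Against TruSeq70, 54 genes had a higher and 4 a lower ratio in SMARTseq4. The list genes among them were Ppara (difference 1.88), Nr5a2 (1.84), Onecut2 (1.61) and Trbc1 (-4.97). Among the genes with the smallest p, Exph5, an effector of vesicle transport, had a difference of 8.06 ± 0.96 (edgeR adjusted p = 8.8e-03). Its IP reads were 62, 72 and 175 in SMARTseq4 and 1, 0 and 0 in TruSeq70, beside input reads of 169, 139 and 211 in SMARTseq4. The size of this difference rests on a TruSeq70 IP group near the floor. The corepressor gene Ncor1 differed by 1.70, the chromatin regulator Kmt2e by 2.03 and the mitochondrial gene mt-Nd5 by 2.11. None of these differences was kept when a mouse was left out.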

How the results depend on the processing

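Of 82 named genes tested, 57 kept their direction and side of the threshold in all of up to 20 alternatives, and of the 77 called 21 lost the call in at least 1. The alternative that lost most was limma on RPKM over the gene span, with 8 calls lost at a pseudocount of 0.1 and 12 at 1. In that fit the pseudocount pulls values of genes with low RPKM towards 0. Without TMM factors 2439 genes were lower in IP, and 343 of the weak genes. With a mean of at least 20 reads required, 864 weak genes were higher. Leaving out a library or mouse gave 413 to 641 weak genes lower. The median SD of the SMARTseq4 ratios was 0.150 to 0.253 when a mouse was left out, an alternative chosen after seeing the data. An SD over fewer mice has a lower median. Values that changed sign were Rpl22 (-0.0780 without IP replicate 1, -0.0387 without mouse 1, up to 0.740 without mouse 3, and -0.00179 with RPKM and pseudocount 0.1), Zap70 (-0.00587 without input replicate 2, up to 0.299 without IP replicate 2, and -0.0453 and -0.0108 with RPKM), Ppara (0.87 and 0.54 with RPKM) and Nr5a2 (0.51 without TMM factors, 0.00612 with at least 20 reads, -0.234 to 0.197 when a library or mouse was left out, 0.00527 in thinned libraries, 0.0314 without mitochondrial, hemoglobin and ribosomal RNA genes). The cause of these changes was not tested.

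With a replicate block for the mouse, 4938 genes were higher and 4729 lower, 8978 of the 9096 calls were kept, and among the named genes the pairing changed only Exph5, which then passed (-0.81). With the block for the RNA sample, 250 genes had a higher and 137 a lower ratio than in TruSeq70, and 0 a lower one than in SMARTseq0.25, where 956 were at an unadjusted p under 0.05 by edgeR and DESeq2 called 31 higher and 40 lower. DESeq2 called 497 higher and 191 lower against TruSeq70. With no filter the counts were 194 and 14 against TruSeq70 and 8 lower against SMARTseq0.25, and thinned libraries gave 3 lower there. Without TMM factors, 0 genes were lower than in SMARTseq0.25 by edgeR, with 711 at an unadjusted p under 0.05. Leaving out a mouse gave 0 to 0 genes in every count of differences by edgeR, with 635 to 2070 at an unadjusted p under 0.05. Depth limits the weak range: 3 reads were 0.0993 to 0.208 CPM in a library.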
